A study of Mus musculus with 122 samples.

Results

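The genes of the MYC network examined here are Myc, Mycn, Mycl, Max, Mlx, Mnt, Mxi1, Mxd1 and Mxd3. They were listed by name, and all 9 were found among the 52459 genes of the RNA table and passed the filter on low values in every line. The cells were E14Tg2a mouse embryonic stem cells (XY, 129/Ola) in which both Ctcf alleles carry an auxin-inducible degron, the plant protein Tir1 is expressed from the Rosa locus, and a doxycycline-inducible transgene with FLAG and mRuby tags sits at the Tigre locus. Each line was a single clone and carried CTCF, its germline paralog CTCFL, or a chimera. LCL has the zinc fingers of CTCF between the termini of CTCFL, CLC has the zinc fingers of CTCFL between the termini of CTCF, CLL is CTCFL with the N terminus of CTCF, and LLC is CTCFL with the C terminus of CTCF. Cells were untreated (U), given 500 µM auxin (I), which removes the endogenous CTCF protein, given 1 µg/ml doxycycline (D), which induces the transgene, or given both (ID). For treated CTCF, CTCFL, LCL and CLC cells, the RNA, RAD21, Hi-C and FLAG labels name 24 h. The FLAG labels of CLL and LLC, and those of the RNase and mock samples, name 48 h. The treatment protocol instead names 2 days for RNA and ChIP-seq and 4 days for Hi-C.

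MYC, MYCN and MYCL are transcription factors of the basic helix-loop-helix leucine zipper class that bind the E box CACGTG as dimers with MAX and raise the transcription of genes for growth, ribosome synthesis and metabolism. MXD and MNT proteins and MXI1 compete for MAX and repress through the same element, and MLX is the partner of the glucose-sensing arm of the network. In embryonic stem cells Myc and Mycn support self-renewal, and a CTCF site upstream of Myc is among the first described sites of CTCF.

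RNA was measured in 38 libraries of 4 lines (CTCFL, CTCF, LCL and CLC) and 4 conditions, with 2 or 3 replicates per group. In 36 libraries the whole reads could be recovered from the values, and they summed to between 6847072 (CTCFL D replicate 3) and 49716771 per library, the second lowest being 16270957. Ctcfl, which includes the reads of the CTCFL transgene, averaged 208 ± 16.5 (SD, n = 3) normalized counts in CTCFL U and 8244 ± 1005 (n = 3) in CTCFL D. It had 5572.29 and 5454.85 in CTCFL ID, 383.86 and 416.09 in LCL D, and 1119.64 and 1224.52 in LCL ID. In CLC D it had 1791.35 and 1829.24, and in CLC ID 3441.02 and 2543.9. Induction thus differed between D and ID at this row. The chimeras hold only parts of Ctcfl, so the row does not compare dose between transgenes. Ctcf RNA was 4701 ± 15.1 (n = 2) in CTCF U and 3748 ± 172 (n = 3) in CTCF D, so the CTCF transgene was not visible at that row, and auxin acts on the protein, which RNA does not report. The pluripotency markers Pou5f1, Sox2 and Nanog were at or above 9410.24 normalized counts in every U library. The U libraries of the LCL and CLC lines stood apart from those of the other lines: Gata6, a marker of primitive endoderm, lay between 32.03 and 42.6 there, against 981.63 to 1114.67 in CTCFL U and CTCF U. The column names of all LCL and CLC libraries carry the mark 2i, the name of a culture medium with GSK3 and MEK inhibitors, and those of the CTCFL and CTCF libraries do not, while the growth protocol lists both inhibitors for all cells. Clone, line, this mark and experimental set cannot be told apart in these levels, and in bulk RNA fewer cells of a type and less RNA per cell cannot be told apart either.

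FLAG ChIP-seq placed the transgenic proteins at the promoters of 7 of the 9 genes. A site was a peak found in both replicates with its middle within 3 kb of any annotated start site of the gene, and it was scored in 12 conditions (6 transgenes, each in D and ID). Of 108 pairs of gene and condition, 57 (52.8%) had a site, compared with 26.6% of the same pairs over the 14122 genes measured in all 4 lines. Max, the shared partner, and Mlx had no site in any of the 12 conditions. At Max, replicate 1 alone had peaks in CTCFL D (2.77-fold, −34 bp from a start site) and CTCFL ID (3.49-fold, −162 bp). Replicate 2 alone had 1 in CTCF D (4.79-fold). Mxd1 and Mxi1 had one in 9 conditions, Myc, Mycn, Mycl and Mxd3 in 8, and Mnt in 7. CLL D, LLC D and LLC ID had none at these genes, and their lists were also the shortest, with 1908, 3305 and 6621 sites over the genome. CLC D had sites only at Mxd1 and Mxi1 and CLC ID at 7 genes, from lists of 7599 and 17876 sites that reached 9.99% and 27.9% of the measured genes. Mnt was the only gene with a site in CTCF D and none in CTCF ID, where a peak of 3.30-fold enrichment was present in replicate 1 alone.

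**Figure D1:**
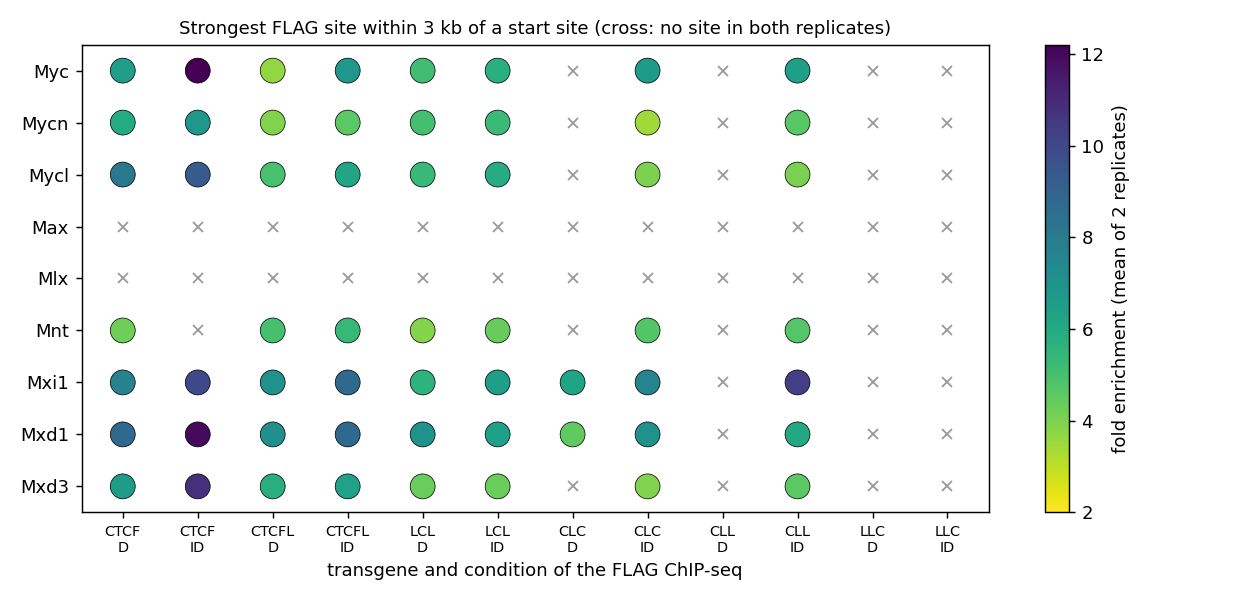
Fold enrichment of the strongest FLAG site (colour, mean of 2 replicates) within 3 kb of a start site of each gene (rows) in each of the 12 FLAG ChIP-seq conditions (columns), with crosses where no site was found in both replicates. Max and Mlx have only crosses, and CLL D, LLC D and LLC ID have no site at any of the 9 genes.

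The sites fell into 15 loci, 8 of which were occupied in 7 or more conditions. The Myc site (chr15:61983011-61984010, GRCm38) was intergenic, with its middle at −1880 bp from the first start site of Myc and also within 3 kb of the start of Gm37947. Its enrichment was highest for the CTCF transgene without endogenous CTCF, at 12.44 and 11.96 in the replicates of CTCF ID (−log10 q of 74.9 and 48.2). In CTCF D, where endogenous CTCF was present, it was 7.65 and 5.34. CTCFL occupied the same place with 3.70 in both replicates of CTCFL D, and 7.11 and 6.44 in CTCFL ID. The chimeras gave 4.96 and 5.32 in LCL D, 5.67 and 5.77 in LCL ID, 5.96 and 7.21 in CLC ID, and 4.25 and 8.70 in CLL ID. The ID values were thus above the D values of the same transgene for CTCF, CTCFL and LCL, although fold enrichments from separate libraries also depend on the background of each. A weak further site inside Myc, with enrichments of 2.402 and 2.95, was found only in CTCFL D.

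The other loci lay at varied places in their genes. The main Mycl site (chr4:122994672-122996688) covered the first start site, and the main Mxd1 site (chr6:86670521-86672086) was intergenic, with its middle at −2143 bp from the start site. The Mycn site found in 8 conditions (chr12:12938579-12940055) and the Mxd3 site found in 7 (chr13:55327178-55328771) were intronic. Mxi1 had 3 loci, among them 1 with its middle 51 bp downstream of an internal start site (chr19:53329087-53330630, its summit in an exon) and an intronic one (chr19:53369072-53370593), the latter also within 3 kb of the start of Gm10197. The Mnt site (chr11:74829349-74830965) had its middle at −762 bp from the first start site. Over all conditions, enrichment ranged from 3.58 to 12.7 at Mxd1, from 3.39 to 12.2 at Mxi1, from 2.92 to 11.9 at Mxd3, from 3.09 to 10 at Mycl, from 3.06 to 8.22 at Mycn and from 2.17 to 5.80 at Mnt. At Mxd1 the replicates gave 11.2 and 12.7 in CTCF ID, 10.9 and 6.63 in CTCF D, and 9.95 and 7.52 in CTCFL ID.

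A 14-position CTCF matrix estimated on the 30317 sites of CTCF ID was searched around the summits, because the zinc fingers of CTCF read this motif. Within 50 bp it matched at 61.0% of those sites and at 5.00% of control windows, and at 4 of the 15 loci of these genes. Within 100 bp, with the threshold reset to 5.00% of controls, it matched at 77.6% of the sites and at 7 of the 15 loci. Of the 15 loci, 7 had a site in CTCF ID, the set on which those percentages rest, and of these 3 matched within 50 bp and 6 within 100 bp. The match at the Myc site scored highest of the 7, at 18.5, and lay at −1953 bp from the first start site on the strand of the gene. The other 6 are shown on the strand of the match, from GRCm38, with the 14 matched positions in capitals:
Mycl (chr4:122995473-122995502, plus strand, score 17.2): gccgagggCCACCAGGTGGCGCggtggagg
Mxd1 (chr6:86670995-86671024, minus strand, score 17.3): cttcactgCCAGTAGATGGCGCtagatact
Mxi1 (chr19:53369876-53369905, minus strand, score 15.1): cagcatctCCGCCAGAGGGCGCagctgcct
Mxd3 (chr13:55327884-55327913, plus strand, score 14.1): actcctgtCCACCAGGGGGCCTgcaattcc
Mnt (chr11:74837855-74837884, plus strand, score 12.2): ctcccaccCCGGGAGGGGGCGGgcaggagg
Mycn (chr12:12939135-12939164, minus strand, score 11.8): gtgcgtggCCAGCAGGCGGCGTtgtgtctg
The Mnt match belongs to a site found in LCL ID alone, and the Mnt site found in 7 conditions held no match in this window. Scores describe likeness to the matrix and were not tested as binding.

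The E box itself was looked for in the promoters of 8 of the genes, all but Myc. They were given by RefSeq (GRCm38.p6) as 250 bases before to 50 after a start. CACGTG, which reads the same on both strands, was present in 3 of 10 promoters of these genes, against 7.15% of all 32851 promoters and 9.96% of those of measured genes. The 3 were those of Max, Mlx and Mnt, each shown with the E box in capitals on the strand of the gene:
Max (chr12:76962234-76962263): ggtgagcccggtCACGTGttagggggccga
Mlx (chr11:101087238-101087267): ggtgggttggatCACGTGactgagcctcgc
Mnt (chr11:74830789-74830818): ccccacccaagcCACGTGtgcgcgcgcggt
Of these 3, Max and Mlx had no FLAG site, and Mnt had one in 7 conditions.

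Permeabilized cells of CTCF ID and CTCFL ID were treated with RNase A before crosslinking and compared with mock-treated cells. For CTCF, 3 of the 9 genes (Mycl, Mxd3 and Mxi1) had a site after RNase and 5 after the mock (those and Myc and Mxd1). Over the measured genes the shares were 12.1% and 23.1%, from lists of 8142 and 20575 sites, and RNase replicate 2 held 8584 peaks against 24896 in replicate 1. For CTCFL, no gene had a site after RNase and Mxi1 alone after the mock, where 7.11% and 8.19% of the measured genes had one. Its RNase replicate 2 held 2526 peaks, and replicate 1 alone had peaks at Mycl (5.44-fold), Mxi1 (4.22 and 5.74-fold) and Mnt (5.63-fold). At Myc the mock replicates of CTCF ID gave 6.40 and 7.51, and after RNase a peak of 3.97 was called in replicate 1 alone.

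RAD21, a subunit of the cohesin ring, was found in both replicates only in CTCF D, at Mycl (6.28 and 4.62-fold) and at Mxd1 (5.61 and 4.80-fold). These are 2 of 72 pairs of gene and condition (2.78%), against 0.729% of pairs over the measured genes. With 1 replicate alone they were 9 pairs (replicate 1, 12.5%) and 14 pairs (replicate 2, 19.4%), against 6.14% and 8.16% of pairs over the measured genes. The RAD21 lists shared between replicates held from 117 regions (LCL ID) to 3450 (CTCF D), so a pair without a region was not detectable in most conditions and cannot be read as absence of cohesin. At Myc, no region was present in both replicates, and 1 replicate alone had regions in CTCF D (4.34-fold), CTCFL D (4.24-fold), LCL D (2.87 and 3.30-fold) and CLC D (2.94-fold).

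The nearest domain edge to Myc lay in different places with and without auxin. Domain lists from both callers, crane and HiCratio, in bins of 40 kb, were available for 12 conditions of 4 lines, with 1 list per caller and condition and hence no replicate error. In the HiCratio lists, the nearest edge lay 25.4 kb upstream of Myc in CTCF U, D and ID, CTCFL U and D, LCL D and CLC D, which are the 7 conditions without auxin or with CTCF induced. In the 5 auxin conditions in which no CTCF transgene was induced (CTCF I, CTCFL I, CTCFL ID, LCL ID and CLC ID) the nearest edge was 105.4 or 145.4 kb upstream. In the crane lists, an edge 14.6 kb downstream was the nearest in CTCF U, D and ID, CTCFL U and D, and CLC D. It was at 54.6 kb downstream in LCL D, 25.4 kb upstream in CTCF I, and 65.4 kb upstream in CTCFL I, CTCFL ID, LCL ID and CLC ID. The crane edges of CTCF U (62000000), CTCF I (61960000) and LCL D (62040000) are in neighbouring bins. LCL ID, which carries the zinc fingers of CTCF, was therefore on the side of the depleted conditions in both lists. Mnt had the same split in the HiCratio lists. Its nearest edge was 49.1 or 89.1 kb downstream in the 7 conditions and 150.9 or 430.9 kb upstream in the 5. In the crane lists it was upstream in every condition. HiCratio domains were fewer with auxin alone: 3041 in CTCF U and 2496 in CTCF I, 2952 in CTCFL U and 2556 in CTCFL I. The share of all genes whose edge moved was not counted, so the shift is not shown to be particular to Myc.

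**Figure D2:**
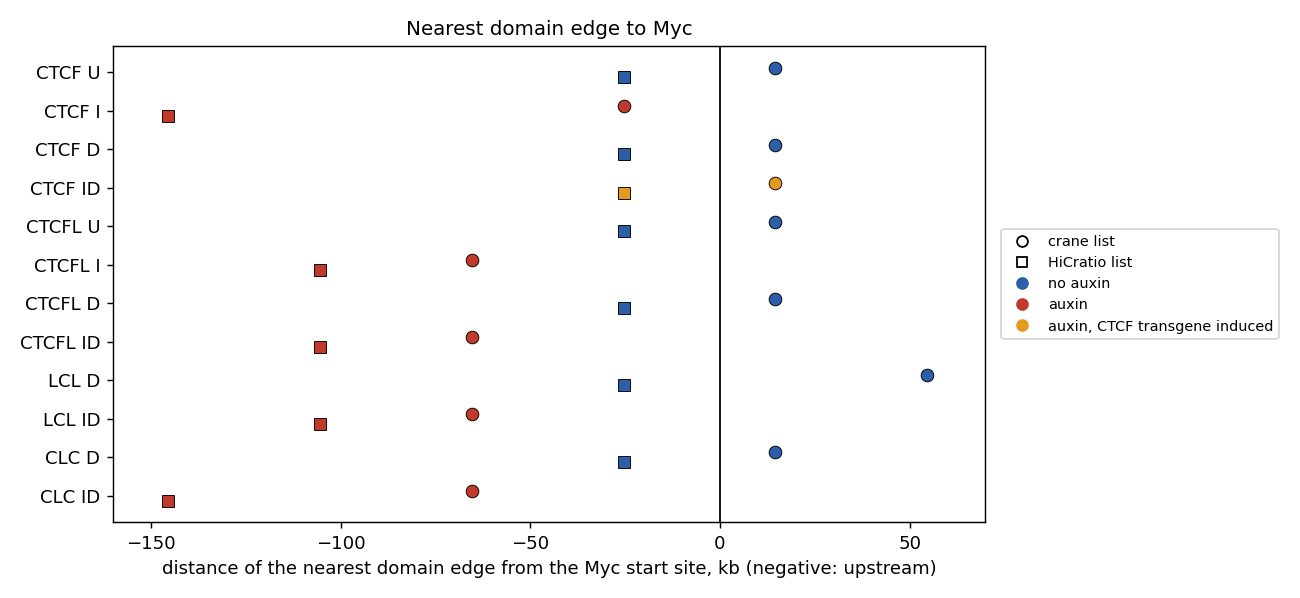
Distance in kb from the Myc start site to the nearest domain edge (x axis, negative is upstream) in each Hi-C condition (rows), for the crane (circles) and HiCratio (squares) lists, coloured by auxin and the CTCF transgene. In the crane list the 5 auxin conditions without an induced CTCF transgene have their nearest edge upstream of Myc, at 25.4 or 65.4 kb. In the HiCratio list the nearest edge is upstream in every condition, at 105.4 or 145.4 kb in these 5 and 25.4 kb in the others.

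Over all 9 genes, 13 of 108 pairs in the crane lists (12.04%) and 16 in the HiCratio lists (14.8%) had an edge within 40 kb, compared with 19.2% and 24.8% of pairs over the measured genes. Myc accounted for 7 in each list. In the crane lists the other 6 were Mycl, and in the HiCratio lists the others were Max (5), Mlx (3) and Mxd3 (1). Mycn, Mxd1, Mxi1 and Mnt were never within 40 kb of an edge.

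Changes in RNA were tested with limma on log2(value + 1) within each line, and a gene is said to have risen or fallen only at an adjusted p under 0.01. On this scale the fold change of weakly expressed genes is understated. Depletion of CTCF (I versus U) gave 3 rises and 7 falls among 36 pairs of gene and line, and the background over all tested genes was 14% higher and 15.3% lower. Induction beside endogenous CTCF (D versus U) gave 0 rises and 9 falls, with a background of 5.03% higher and 5.83% lower. The falls were 4 in CTCFL, 2 in CTCF, 1 in LCL and 2 in CLC. In the same order, 12.6%, 3.23%, 6.2% and 0.887% of the tested genes were lower in D. ID versus U gave 4 rises and 9 falls, with a background of 17.2% and 18.1%, and ID versus I gave 5 rises and 9 falls, with a background of 10.8% and 12.8%. Of the 16 comparisons within lines, Myc passed in 12 (5 higher, 7 lower), Mycn in 11 (2 and 9), Max in 6 (0 and 6), Mxi1 in 5 (0 and 5), Mxd3 in 4 (2 and 2), Mycl in 3 (1 and 2), Mlx in 3 (2 and 1), Mnt in 2 (0 and 2) and Mxd1 in none. Comparisons within a line share groups and are not independent of each other.

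**Figure D3:**
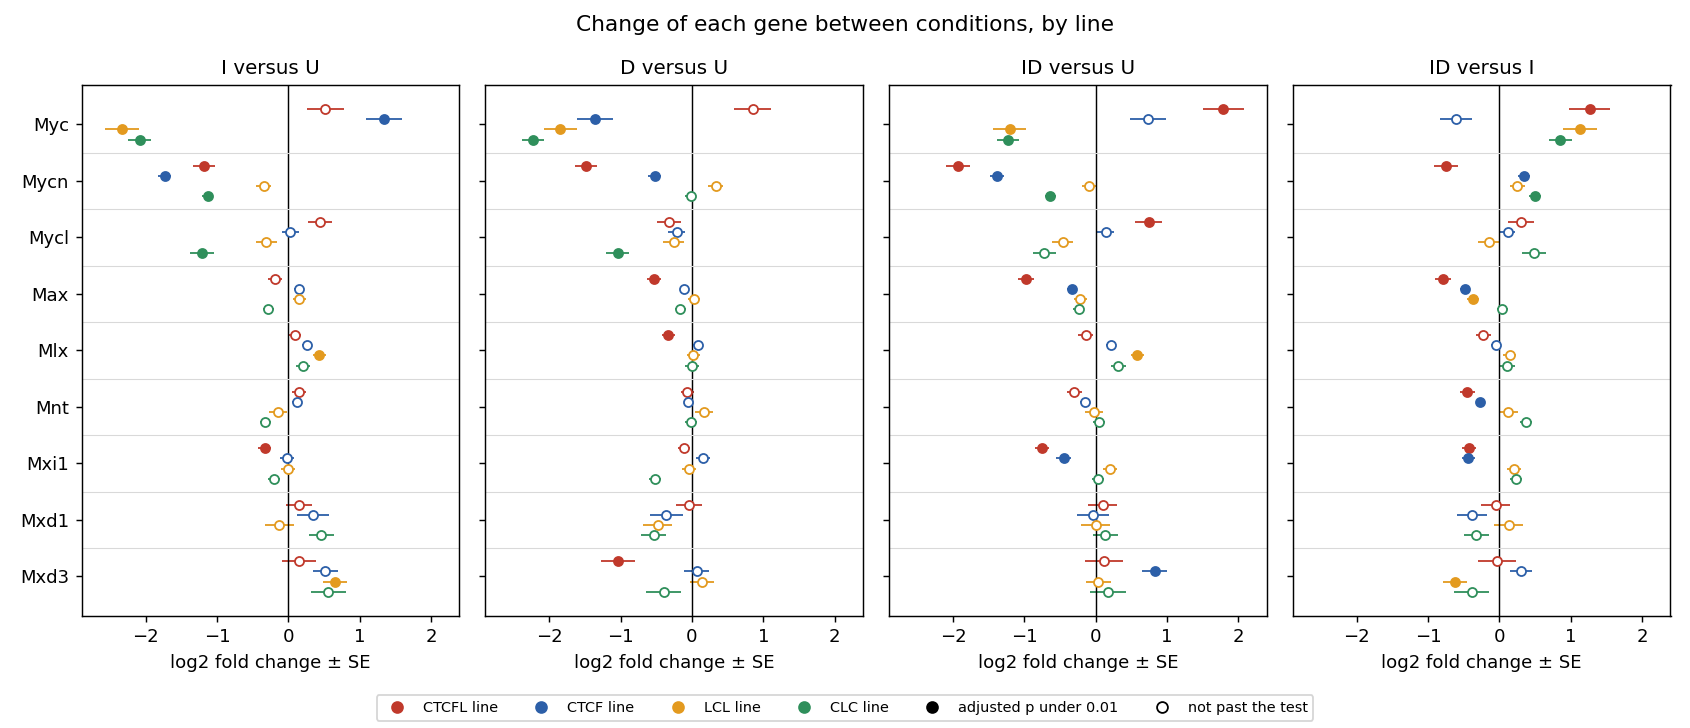
Log2 fold change with its standard error (x axis) of each of the 9 genes (rows) in the 4 lines (colours) for the 4 comparisons (panels), with filled points at an adjusted p under 0.01. Myc and Mycn hold the changes of largest size, and Mxd1 has no filled point.

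Myc responded to CTCF depletion in opposite directions in different lines. In CTCF U it had 70.19 and 51.92 normalized counts, and in CTCF I 164.56, 138.59 and 161.78. In LCL U it had 459.52 and 529.13, and in LCL I 71.63 and 131.04. In CLC U it had 469.36 and 430.64, and in CLC I 96.6 and 114.29. The groups did not overlap in any of these 3 lines: auxin libraries lay above the untreated ones in the CTCF line and below them in the LCL and CLC lines. In the CTCFL line the values were 65.98, 54.35 and 44.13 in U and 64.34, 85.83 and 85.98 in I, which overlapped. The log2 change was 1.34 ± 0.25 (SE) in the CTCF line (adjusted p = 0.000737), −2.33 ± 0.23 in the LCL line (adjusted p = 1.415e-07) and −2.09 ± 0.16 in the CLC line (adjusted p = 3.391e-05). In the CTCFL line it was 0.52 ± 0.26 (adjusted p = 0.111), which did not pass. The call in the CTCF line was lost without CTCF U replicate 2 (1.13, adjusted p = 0.0148).

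The difference between the lines was itself tested. Against the CTCFL line, the change of Myc from U to I was lower by 2.86 ± 0.34 on the log2 scale in the LCL line (−2.86, adjusted p = 6.699e-07) and by 2.61 ± 0.34 in the CLC line (−2.61, adjusted p = 1.704e-06), while the CTCF line differed by 0.82 ± 0.32 (adjusted p = 0.152). Over all 9 genes, 4 of 27 such differences passed (1 higher, 3 lower), with a background of 3.70% higher and 3.17% lower. The mean change of Myc over the 4 lines, −0.64 ± 0.12 (adjusted p = 3.011e-05), therefore averages opposite directions: it was 0.93 in the CTCFL and CTCF lines alone and −2.21 in the LCL and CLC lines alone. The lines that fell had started from untreated levels of 494 ± 49.2 (LCL, n = 2) and 450 ± 27.4 (CLC, n = 2), against 54.8 ± 10.9 (CTCFL, n = 3) and 61.1 ± 12.9 (CTCF, n = 2). After auxin all 4 lines were closer together, between 64.34 and 164.56. The 2i mark and the level of Gata6 in U separate the same pairs of lines, as given above, so line and mark cannot be told apart in this result.

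Beside endogenous CTCF, Myc was lower in D than in U in 3 lines. No line without a transgene was given doxycycline, so the drug and the transgene cannot be told apart. In the LCL and CLC lines the I and ID libraries were below U as well. CTCF D had 24.21, 17 and 29.33 normalized counts, LCL D 143.85 and 129.68, and CLC D 98.82 and 91.03, all below every U library of the same line. The log2 changes were −1.36 ± 0.25 (CTCF, adjusted p = 0.00522), −1.85 ± 0.23 (LCL, adjusted p = 1.65e-05) and −2.23 ± 0.16 (CLC, adjusted p = 0.000842). CTCFL D went the other way, with 87.81, 107.55 and 101.13, above the 3 U libraries, and its change of 0.85 ± 0.26 did not pass (adjusted p = 0.0124). The difference between the CTCFL line and the others in this comparison was not tested. The call in the CTCF line was lost without replicate 1 or 2 of D, replicate 1 of ID, or either U replicate (adjusted p from 0.0102 to 0.0362), and with the 2 groups alone in the fit (0.0227). The call in the CLC line was lost without any 1 of its U or D libraries (adjusted p from 0.0176 to 0.0233).

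In depleted cells the lines also differed after induction. Each transgene was carried by a single clone, so transgene and clone cannot be told apart here. For LCL and CLC the 2i mark cannot be told apart from them either. Myc had 181.27 and 198.01 normalized counts in CTCFL ID, 245.47 and 185.02 in LCL ID, and 194.09 and 187.76 in CLC ID, in each case above every I library of the line. In CTCF ID it had 106.09, 118.5 and 81.72, below the 3 I libraries. From I to ID Myc rose by 1.27 ± 0.29 on the log2 scale with CTCFL (adjusted p = 0.0012), by 1.13 ± 0.23 with LCL (adjusted p = 0.000561) and by 0.86 ± 0.16 with CLC (adjusted p = 0.0093), and its change of −0.61 ± 0.23 with CTCF did not pass (adjusted p = 0.0462). Set against the CTCF line, these changes were higher by 1.879 ± 0.32 for CTCFL (adjusted p = 8.057e-05), 1.74 ± 0.34 for LCL (adjusted p = 0.000134) and 1.47 ± 0.34 for CLC (adjusted p = 0.00089). Relative to untreated cells, ID was higher by 1.79 ± 0.29 in the CTCFL line (adjusted p = 1.72e-05) and lower by 1.21 ± 0.23 (−1.21, LCL, adjusted p = 0.000236) and 1.23 ± 0.16 (−1.23, CLC, adjusted p = 0.000895), and in the CTCF line 0.73 ± 0.25 did not pass (adjusted p = 0.0256). The call in CTCFL (ID versus I) was lost without either ID replicate (adjusted p of 0.0116 and 0.0209), which left 1 library assumed to vary like the others, and by edgeR and DESeq2 on recovered reads, where ID replicate 2 is missing (adjusted p of 0.0188 and 0.0135). The call in LCL (ID versus I) was lost without replicate 1 of I (0.70, adjusted p = 0.0231) or of ID (0.93, adjusted p = 0.0157). In CLC the ID versus I call was lost without any 1 library of the line except I replicate 2 (adjusted p from 0.0141 to 0.0517), with the 2 groups alone in the fit (0.0754), with all 4 lines in it (0.0149) and with no filter (0.0175), and the ID versus U call without either U replicate (adjusted p of 0.0183 and 0.0137).

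**Figure D4:**
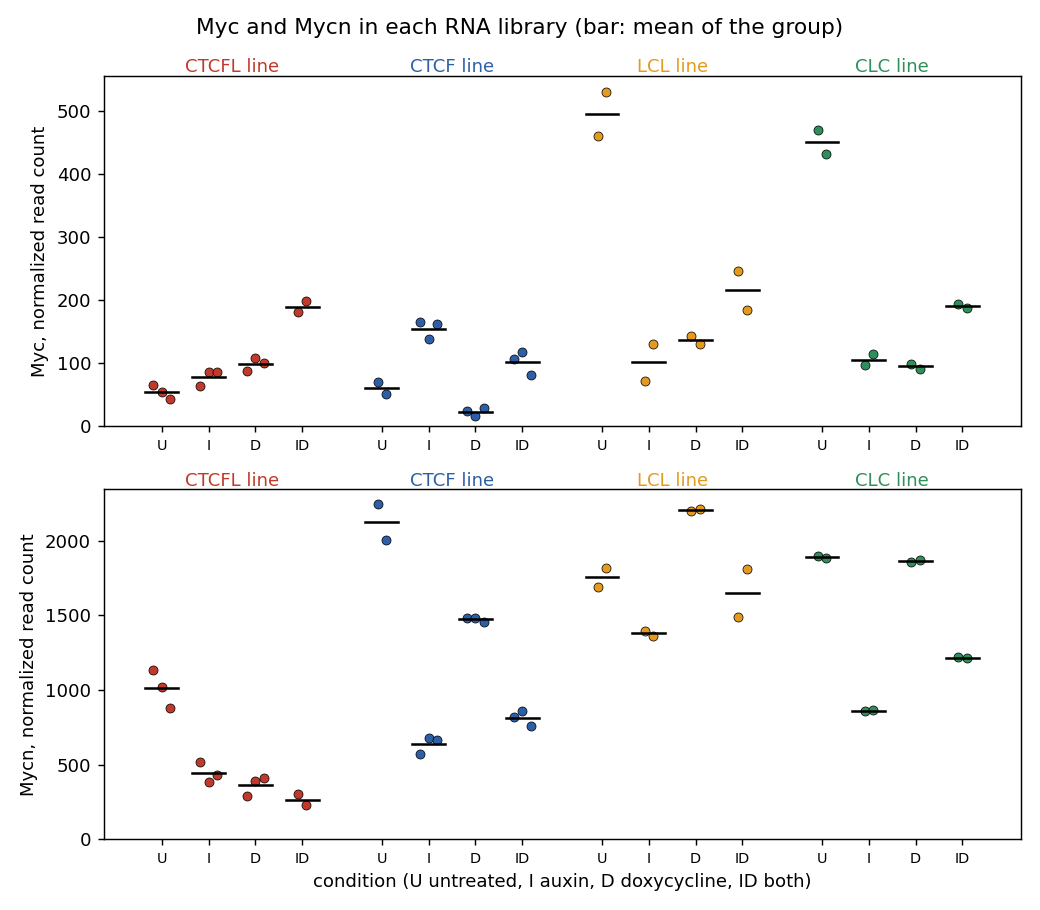
Normalized read counts of Myc (top) and Mycn (bottom) in each of the 38 RNA libraries (points), by line (colours) and condition (x axis), with bars at the group means. Myc is above 245.47 only in LCL U and CLC U, and Mycn is lower in I than in U in every line.

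Ordered by group mean, Myc was highest in LCL U and CLC U, whose ranges overlapped, and every one of the other 34 libraries was at or below 245.47. The groups CTCFL ID, CLC ID and LCL ID followed, between 189.6 and 215 on average, with overlapping ranges. CTCF D was lowest, at 23.5 ± 6.19 (n = 3), and its 3 libraries lay below all others.

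Mycn, the main MYC gene of embryonic stem cells, fell with CTCF depletion in 3 of the 4 lines. It had 1133.78, 1021.78 and 882.5 normalized counts in CTCFL U and 520.31, 386.24 and 433.52 in CTCFL I. It had 2243.88 and 2000.71 in CTCF U and 569.19, 681.6 and 665.55 in CTCF I. It had 1895.17 and 1883.9 in CLC U and 856.88 and 867.33 in CLC I. In each line all I libraries were below all U libraries, and that was also so in the LCL line, with 1692.14 and 1813.36 in U and 1397.13 and 1363.74 in I. The log2 changes were −1.18 ± 0.15 (CTCFL, adjusted p = 1.715e-06), −1.73 ± 0.09 (CTCF, adjusted p = 1.597e-08) and −1.13 ± 0.08 (CLC, adjusted p = 2.786e-05), and −0.34 ± 0.10 in LCL missed the threshold (adjusted p = 0.0113) but passed under 7 alternatives, edgeR, DESeq2 and the 2 groups alone among them (lowest adjusted p = 0.00283). The LCL change differed from that of the CTCFL line by 0.84 ± 0.18 (adjusted p = 0.00133), a call lost without LCL U replicate 1 (0.79, adjusted p = 0.0119). Over the 4 lines the mean change was −1.10 ± 0.07 (adjusted p = 1.196e-15).

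The lines also separated on Mycn after induction, where transgene and clone again cannot be told apart. With CTCFL induced beside endogenous CTCF it had 293.02, 388.25 and 408.25 in CTCFL D, and with CTCFL induced after depletion it had 301.38 and 230.18 in CTCFL ID. These are falls of 1.48 ± 0.15 (−1.48, adjusted p = 1.435e-07) and 1.93 ± 0.17 (−1.93, adjusted p = 2.937e-09) on the log2 scale against U, and ID was also lower than I (−0.75 ± 0.17, adjusted p = 0.00117, lost without ID replicate 2 at adjusted p = 0.0468 and by edgeR and DESeq2 at 0.022 and 0.015). With CTCF, D had 1479.87, 1483.01 and 1455.5 and ID 816.21, 857.64 and 759.71, so that ID lay above the I libraries but far below U. Against I, Mycn was higher by 0.35 ± 0.08 in CTCF ID (adjusted p = 0.00496, lost without I replicate 1 or ID replicate 1 or 2). In CLC ID it was higher by 0.50 ± 0.08 (adjusted p = 0.00586, lost without any 1 of its U, D or ID libraries). The highest adjusted p of these losses was 0.0283 for CTCF and 0.038 for CLC. Both calls were also lost with the 2 groups alone in the fit (0.0154 and 0.0906), and that of CTCF with all 4 lines in it (0.0176). In LCL D, at 2195.81 and 2213.58, and LCL ID, at 1489.91 and 1810.66, no change against U passed (0.33 ± 0.10 and −0.09 ± 0.10, adjusted p of 0.0261 and 0.476). The ID versus I change of CTCFL differed from that of CTCF by −1.10 ± 0.17 (adjusted p = 2.759e-05), and those of LCL and CLC did not pass that test (−0.10 ± 0.18 and 0.15 ± 0.18, adjusted p of 0.727 and 0.563). Against U, CTCF D and ID fell by 0.52 ± 0.09 (−0.52, adjusted p = 0.00423) and 1.39 ± 0.09 (−1.39, adjusted p = 4.991e-08), and CLC ID by 0.64 ± 0.08 (−0.64, adjusted p = 0.000886). The CTCF D call was lost without D replicate 1 or 3 or either U replicate (adjusted p up to 0.0333), and the CLC ID call without either U replicate (adjusted p = 0.0186 in both cases).

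Mycl changed mainly in the CLC line. It had 689.69 and 656.04 normalized counts in CLC U, 342.57 and 246.29 in CLC I, and 309.05 and 343.53 in CLC D, so that U was above both. The changes were −1.21 ± 0.16 (I, adjusted p = 0.000575) and −1.04 ± 0.16 (D, adjusted p = 0.00981), and the latter was lost without any 1 of the U, D or ID libraries of the line (adjusted p from 0.0169 to 0.117), with no filter (0.0196) and with a minimum mean of 50 (0.0102). In CTCFL it rose from 203.33, 216.41 and 236.88 in U to 377.82 and 355.82 in ID (0.74 ± 0.19, adjusted p = 0.00183). That call was lost without either ID replicate (adjusted p of 0.0245 and 0.0124) and by edgeR and DESeq2 (0.0134 and 0.0181). ID versus U did not pass in CLC (392.7 and 422.92 in ID) or in LCL (461.51 and 492.92 in ID, 566.71 and 760.04 in U). Both comparisons passed by edgeR and DESeq2 on recovered reads. The change from U to I in the CLC line differed from that in the CTCFL line by −1.65 ± 0.21 (adjusted p = 1.991e-06). The mean over the 4 lines of −0.26 ± 0.08 (adjusted p = 0.00382) had the other sign in the CTCFL and CTCF lines alone (0.23, adjusted p = 0.0555), and it was lost without CLC I replicate 2, CLC U replicate 1, CTCF U replicate 2, LCL I replicate 1 or LCL U replicate 2 (adjusted p up to 0.0237).

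Per kilobase of exon, Mycn had the highest mean level of the 3 MYC genes in 15 of the 16 groups, and Myc the lowest in 15. The exceptions were CTCFL ID, where Mycl was highest, and LCL U, where Myc was above Mycl. The share of Mycn in the summed level of the 3 was 80.4% ± 2.06 (SD, n = 3) in CTCFL U, 56.8% ± 5.65 in CTCFL I, 57.8% ± 3.61 in CTCFL D and 33.3% ± 4.29 (n = 2) in CTCFL ID. Untreated CTCF cells had 86.9% ± 1.49 and CTCF D 86.1% ± 0.99, against 59.4% ± 3.50 in CTCF I and 67.5% ± 1.33 in CTCF ID. It ran the other way in the LCL and CLC lines, where it was 60.7% ± 2.43 and 63.3% ± 1.02 in U and 71.4% ± 3.49 and 70.1% ± 2.48 in I. The share of Myc was 20.7% and 18.3% in LCL U and CLC U, 6.31% and 10.4% in I, 5.25% in CTCFL U and 29.04% in CTCFL ID. The summed level of the 3 genes per kilobase went from 741 ± 47.4 in CTCF U to 326 ± 15.0 in CTCF I and from 906 ± 18.4 in CLC U to 373 ± 9.97 in CLC I. In 12 of the 16 groups Max alone had a higher level per kilobase than the 3 together.

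Max fell where CTCFL was induced. It had 2189.47, 2630.53 and 2052.97 normalized counts in CTCFL U, 1615.09, 1671.79 and 1449.49 in D, and 1031.91 and 1296.62 in ID. The ID libraries lay below every other library of the line, and the changes against U were −0.53 ± 0.10 (D, adjusted p = 0.000229) and −0.98 ± 0.11 (ID, adjusted p = 1.391e-07). ID was lower than I as well (−0.79 ± 0.11, adjusted p = 6.438e-06). Smaller falls were called in CTCF ID, against U (−0.34 ± 0.07, adjusted p = 0.000742) and against I (−0.49 ± 0.06, adjusted p = 3.049e-05), and in LCL ID against I (−0.37 ± 0.09, adjusted p = 0.00172). The first was lost without CTCF U replicate 2 (adjusted p = 0.0103) and the last without either I replicate (adjusted p of 0.0195 and 0.0262). No comparison from U to I passed for Max, with changes from −0.28 to 0.16.

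**Figure D5:**
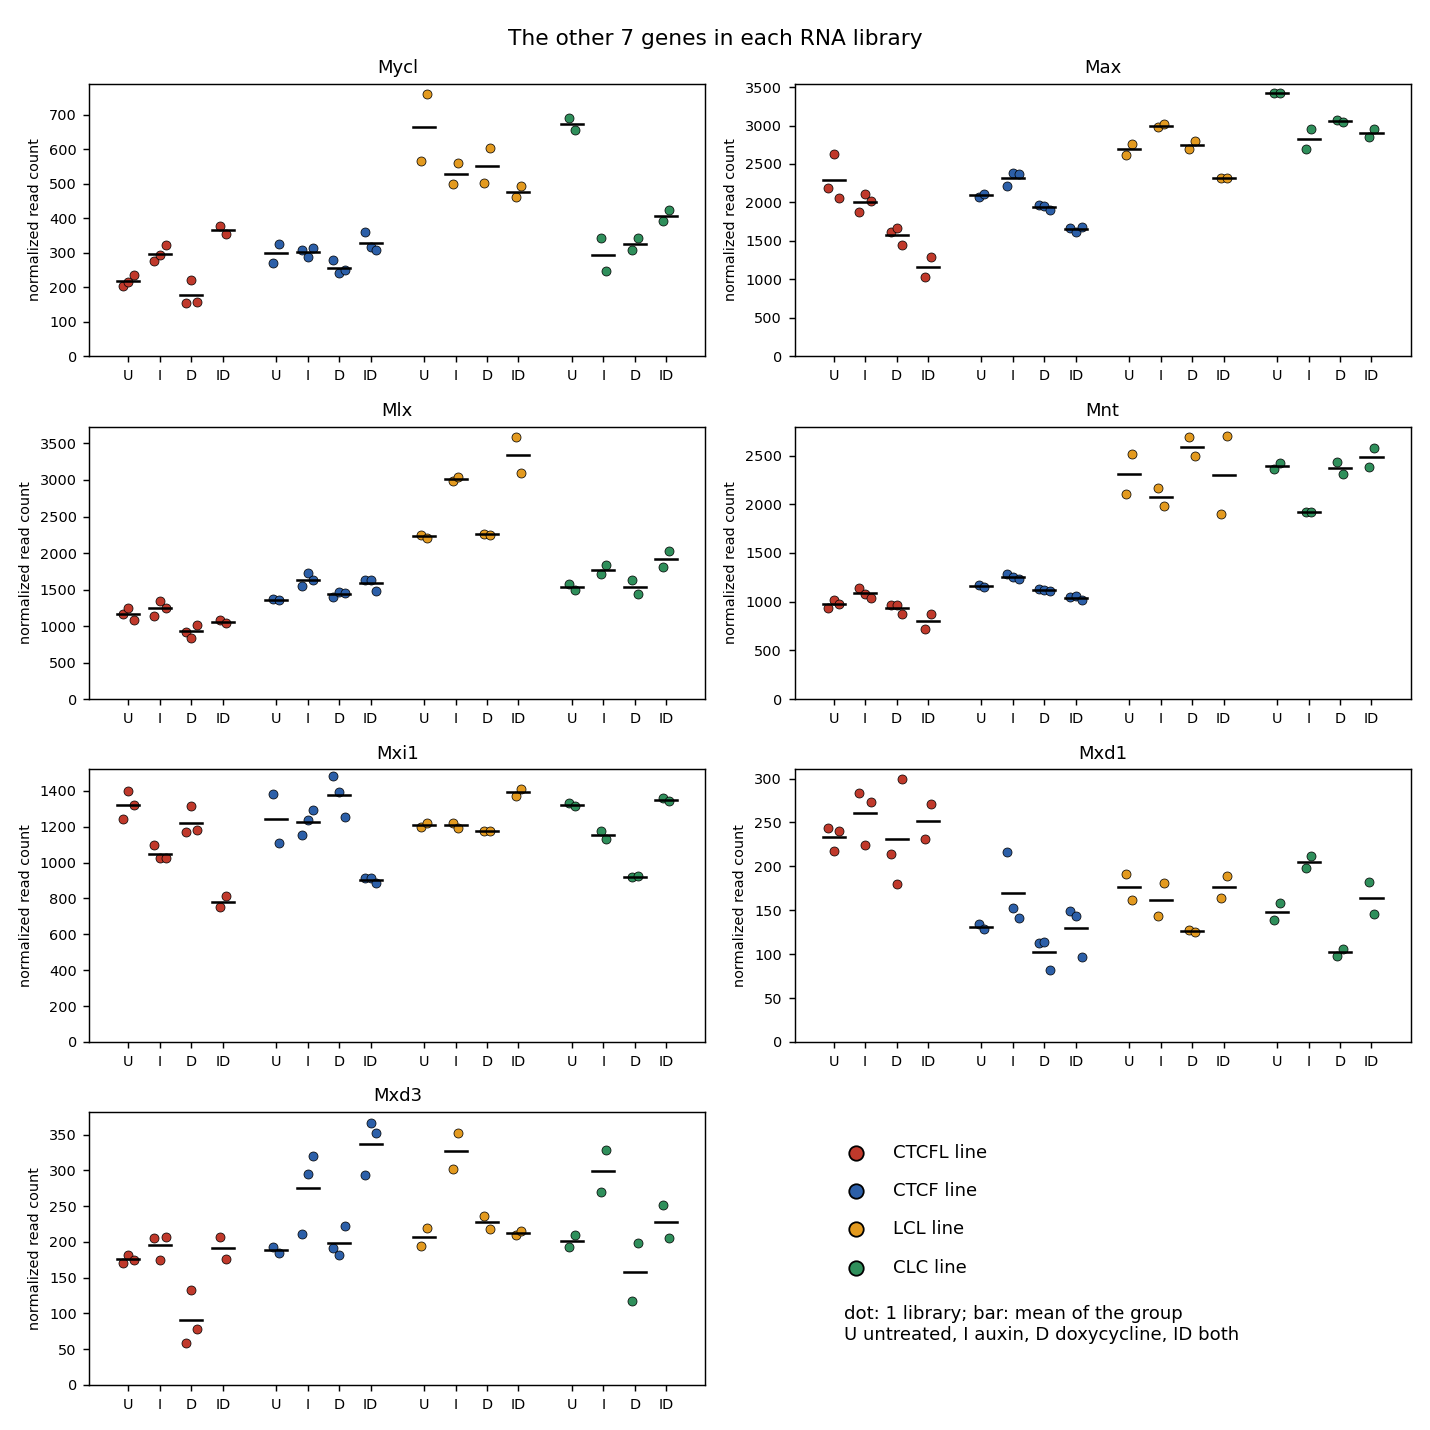
Normalized read counts of Mycl, Max, Mlx, Mnt, Mxi1, Mxd1 and Mxd3 in each RNA library (points), by line (colours) and condition (x axis), with bars at the group means. Max is lowest in CTCFL ID, between 1031.91 and 1296.62, and Mlx is highest in LCL ID, between 3098.74 and 3594.39.

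Mlx rose in the LCL line with auxin, from 2252 and 2206.66 in U to 2987.04 and 3039.69 in I and 3594.39 and 3098.74 in ID. Its changes were 0.43 ± 0.09 (I, adjusted p = 0.000824) and 0.58 ± 0.09 (ID, adjusted p = 2.839e-05), and the first was lost without either I replicate (adjusted p of 0.0108 and 0.0164). It fell in CTCFL D (−0.33 ± 0.09, adjusted p = 0.00856), a call lost without D replicate 1 or 2, either ID replicate, or U replicate 1 or 2 (adjusted p up to 0.0539), with the 2 groups alone in the fit (0.0114) and with no filter (0.0169). The mean change from U to I was 0.25 ± 0.04 (adjusted p = 1.379e-05), with a positive sign in each line. Mlx overlaps Psmc3ip on the other strand, and the counting was not stated to use strand. Mxi1 overlaps AC133451.2 and Gm10197 on the other strand, with the same limit. Max overlaps Gm47218 and Mxd1 overlaps Gm44292 on the same strand, which counting by strand would not separate.

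Among the antagonists, Mxi1, Mnt and Mxd3 changed in at least 1 line and Mxd1 in none. Mxi1 had 1244.2, 1399.26 and 1322.59 in CTCFL U, 1095.64, 1025.98 and 1024.51 in I, and 753.45 and 811.14 in ID, and these 3 groups did not overlap. It fell by 0.33 ± 0.09 (−0.33, I versus U, adjusted p = 0.00348), 0.76 ± 0.10 (−0.76, ID versus U, adjusted p = 7.718e-07) and 0.42 ± 0.10 (−0.42, ID versus I, adjusted p = 0.00123) in that line, and in CTCF ID by 0.45 ± 0.10 against U (−0.45, adjusted p = 0.00188) and 0.44 ± 0.09 against I (−0.44, adjusted p = 0.00174). The CTCFL I versus U call was lost without I replicate 2 or 3 or U replicate 2 or 3 and by edgeR (adjusted p up to 0.0248), the CTCFL ID versus I call without ID replicate 1 and by edgeR (0.0278 and 0.0116), and the CTCF ID versus U call without U replicate 1 (−0.29, adjusted p = 0.0438). In CLC D Mxi1 had 919.41 and 923.72, below the 1331.26 and 1314.46 of CLC U. That change did not pass in the main test, but it did by DESeq2 and with the 2 groups alone or all 4 lines in the fit. Against the CTCF line, the ID versus I change of Mxi1 was higher by 0.64 ± 0.12 in LCL (adjusted p = 6.427e-05) and by 0.67 ± 0.12 in CLC (adjusted p = 3.732e-05). Over all 9 genes, 8 of 27 such differences passed (7 higher, 1 lower), with a background of 10.1% higher and 8.52% lower.

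Mnt fell from I to ID in the CTCFL line (−0.45 ± 0.10, adjusted p = 0.00155, lost without ID replicate 1 at 0.0677) and in the CTCF line (−0.27 ± 0.06, adjusted p = 0.00272, lost without ID replicate 1 or 3 at 0.0109 and 0.0158 and with all 4 lines in the fit at 0.0151). In CLC its change of 0.37 ± 0.08 did not pass, but the difference from the CTCF line did (0.64 ± 0.14, adjusted p = 0.000486). In U its level was 2100.35 and 2513.52 in LCL and 2365.37 and 2427.24 in CLC, against 933.15 to 1169.8 in CTCFL and CTCF. Max differed likewise only in CLC, by 0.53 ± 0.12 (adjusted p = 0.000936).

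Mxd3, which is linked to proliferating progenitors, had 171.01, 181.83 and 175.34 normalized counts in CTCFL U and 59.2, 132.37 and 78.65 in D, a fall of 1.04 ± 0.24 (−1.04, adjusted p = 0.00166) that was lost without D replicate 1 (−0.78, adjusted p = 0.0126). It rose in CTCF ID against U (0.83 ± 0.17, adjusted p = 0.00116, lost without U replicate 2 at 0.0131) and in LCL I against U (0.66 ± 0.17, adjusted p = 0.00367, lost without I replicate 2 or U replicate 1 at 0.0596 and 0.0397 and with all 4 lines in the fit at 0.0333). From LCL I to ID it fell (−0.62 ± 0.17, adjusted p = 0.00513), a call lost without any 1 library of those groups (adjusted p from 0.0109 to 0.072) and with all 4 lines in the fit (0.0415). Mxd3 overlaps Prelid1 on the other strand, with the same limit as Mlx. Mxd1 passed no comparison. Its values lay between 82.55 and 299.64 over all libraries, with changes from −0.54 to 0.46.

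As a mean over the 4 lines, 6 of the 9 genes changed from U to I, with Mlx and Mxd3 higher (2) and Myc, Mycn, Mycl and Mxi1 lower (4). The background of this test was 28.2% higher and 26.2% lower. In the CTCFL and CTCF lines alone, 2 of the 9 passed (Myc, with the other sign, and Mycn), and Mlx, Mxd3 and Mxi1 did not (adjusted p of 0.0168, 0.0732 and 0.0239). Mxd3 had a mean change of 0.47 ± 0.11 (adjusted p = 0.000638) and Mxi1 of −0.14 ± 0.04 (adjusted p = 0.00617). The latter was lost without any 1 of 10 libraries (adjusted p up to 0.0454): CLC I replicate 2, both CLC U replicates, CTCF I replicate 1, CTCF U replicate 1, CTCFL I replicates 2 and 3, CTCFL U replicate 2, LCL I replicate 2 and LCL U replicate 2. The change of Max was −0.04 ± 0.04 (adjusted p = 0.447), that of Mnt −0.05 ± 0.05 (adjusted p = 0.4) and that of Mxd1 0.21 ± 0.11 (adjusted p = 0.0903).

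Of the other 4 genes of the network, Mxd4, a further MXD repressor, rose with depletion in all 4 lines. It went from between 236.88 and 243.72 in CTCFL U to between 544.84 and 617.29 in I, from 85.07 and 123.36 in CTCF U to between 397.85 and 467.73, from 130.28 and 141.39 in LCL U to 315.45 and 317.4, and from 79.35 and 110.33 in CLC U to 501.78 and 588.26. The groups did not overlap in any line, and the changes were 1.24 ± 0.12, 2.04 ± 0.21, 1.22 ± 0.20 and 2.53 ± 0.20, with an adjusted p of 5.71e-05 or lower. Mlxipl, a glucose-sensing partner of MLX, rose in the mean of the lines (0.93 ± 0.07, adjusted p = 1.983e-12), and Mga, which pairs with MAX in a repressive complex, fell (−0.34 ± 0.10, adjusted p = 0.00264). Mlxip did not pass (−0.08 ± 0.09, adjusted p = 0.455). The Mga values of CLC I were 7961.43 and 3613.74, so its change in that line rests on unlike replicates.

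Genes of the wider region around Myc on its chromosome were read from a list of 4 (Pvt1, Asap1, Fam84b and Trib1). Their distances from Myc were not used. In the mean over lines, 3 fell from U to I and none rose, with a median of −0.65 against 0.03 over all genes. The background of this test was 28.2% higher and 26.2% lower. Asap1 fell by 1.33 ± 0.07 (−1.33, adjusted p = 9.55e-18) and did so in each of the 4 lines. Pvt1, a noncoding RNA gene downstream of Myc, fell by 0.97 ± 0.10 (−0.97, adjusted p = 8.775e-10) and passed in all lines but CLC (−0.42 ± 0.21, adjusted p = 0.138). Trib1 fell by 0.34 ± 0.09 (−0.34, adjusted p = 0.0011). In CTCF ID, where Myc was at 102 ± 18.7, Pvt1 and Asap1 were below U, at 62.2 ± 8.34 and 359 ± 15.2 against 221 ± 5.56 and 1443 ± 88.7.

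Lists of MYC cofactors, MYC targets and cell type markers were read in the same mean change from U to I. In this test 28.2% of all genes were higher and 26.2% lower. Of 50 MYC target genes, 4 were higher and 28 lower, with a median of −0.19 against 0.03 over all genes, and the lowest adjusted p were those of Bysl (−0.96 ± 0.04), Prmt3 (−1.09 ± 0.05), Hk2 (−0.86 ± 0.04) and Ddx18 (−0.53 ± 0.03), which act in ribosome synthesis, arginine methylation, glycolysis and ribosomal RNA processing. Within lines the counts of targets were 3 higher and 12 lower in CTCFL, 3 and 16 in CTCF, 1 and 14 in LCL and 1 and 18 in CLC. The shares over all tested genes were 14.3% higher and 16.0% lower in CTCFL and 14.8% and 16.1% in CTCF. They were 14.1% and 14.3% in LCL and 12.7% and 14.5% in CLC. Of 16 cofactors, 4 were higher, Sin3b (0.49 ± 0.04) among them, and 8 lower, among them Usp28 (−0.66 ± 0.05), Sin3a (−0.52 ± 0.04) and Wdr5 (−0.45 ± 0.03). Of 8 pluripotency markers none was higher and 7 were lower, with a median of −0.43, led by Esrrb (−0.92 ± 0.04). Of 14 markers of other cell types 11 could be tested, and 5 were higher and 2 lower, the latter Sox1 (−1.30 ± 0.09) and Otx2 (−0.94 ± 0.08), with Col1a1 (0.84 ± 0.08) and Gata6 (0.67 ± 0.10) among those higher. Gata6 rose in LCL (1.22 ± 0.31, adjusted p = 0.00378) and CLC (1.99 ± 0.25, adjusted p = 0.00037), where Myc fell, and had changes of −0.25 ± 0.11 and −0.27 ± 0.15 in CTCFL and CTCF (adjusted p of 0.0679 and 0.172). Within lines, 5, 4, 4 and 4 of the 8 pluripotency markers were lower in CTCFL, CTCF, LCL and CLC, and 0 were higher. Mycn fell in CTCFL, CTCF and CLC, while Myc rose in CTCF and fell in LCL and CLC. Whether the marker changes and those of the MYC genes are related was not tested.

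Among the genes whose pattern was most like that of Myc were Pcsk7 (r = 0.80), Eif4g2 (0.75), Eml3 (0.73) and Hnrnpul2 (0.72), by the Pearson correlation of log2(value + 1) over 38 libraries after subtraction of the mean of each line, among 14396 genes. Pcsk7 for example had 297 ± 32.5 normalized counts in CTCF U, 379 ± 24.0 in CTCF I, 497 ± 0.71 in LCL U and 304 ± 5.83 in LCL I. For Mycn they were Uck2 (0.90), Znhit6 (0.89), Triml2 (0.89), BC048403 (0.89) and Jam2 (0.89), and Uck2 had 15120 ± 541 in CTCF U and 8460 ± 267 in CTCF I. These are descriptions over libraries that share lines and conditions. Myc and Mycn themselves had r = −0.42 in these libraries.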

How the data were processed

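The 9 genes and all gene lists were chosen with earlier results of these data known. The authors deposited RNA-seq values as counts divided by a size factor per library (a signal scale, termed normalized counts), made from polyA libraries. Per the labels, Trim Galore 0.4.4, SAMtools 1.3, Bowtie2, HTSeq and deepTools were used for the series with GRCm38/mm10. ChIP-seq peaks carry a fold enrichment (ratio) and a −log10 q, as deposited by the authors for each replicate separately, and the lowest −log10 q differs between lists. Hi-C domain lists were deposited per caller and condition.

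The main test was limma 3.58.1 (R 4.3.3) on log2(value + 1) with a trend, for genes with a mean of at least 10, 1 fit per line, with Benjamini-Hochberg adjustment over all genes tested (15274 to 16840 per line). Values in the units of 1 read were whole (tolerance 0.1, up to 500 reads) in 36 libraries, and edgeR 4.0.16 and DESeq2 1.42.0 were run on these reads as alternatives. CTCFL I and CTCFL ID replicate 2 gave no such reads. Replicates are separately labelled samples of a clone, so p-values measure the spread between them. Named genes followed a fixed rule: all 9 genes, 4 further network genes, up to 4 per list by lowest adjusted p, and the 5 most similar to Myc and Mycn. A gene that this rule names is not reported here. Genes and start sites came from GENCODE vM21. The tests and the motif search were tested on simulated data.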

Additional observations from a re-analysis of the deposited data

Results flagged for a closer look

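The following differences between lines passed a test of the difference itself. From U to I, compared with the CTCFL line, they were Myc in LCL (−2.855) and CLC (−2.607), Mycn in LCL (0.8389) and Mycl in CLC (−1.648). From I to ID, compared with the CTCF line, they were Myc in CTCFL (1.879), LCL (1.738) and CLC (1.465), Mycn in CTCFL (−1.096), Mxi1 in LCL (0.641) and CLC (0.665), Max in CLC (0.5286) and Mnt in CLC (0.6443). All values are log2 differences of changes, from limma with adjusted p of 0.00133 or lower. RNA groups held 2 or 3 libraries each and were not examined for single libraries far from the rest.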

How the results depend on the processing

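The counts of pairs past the test were within 1.5 times of the main count under a pseudocount of 5, no filter or a minimum mean of 50, TMM factors, 2 groups or all 4 lines in the fit, edgeR, DESeq2, and each library left out, for all 7 comparisons. With the replicate block, D versus U gave 5 pairs in place of 9. The block moved no other count by over 1.5 times, and same-numbered replicates shared only a number (correlations of their deviations from −0.30 to 0.16). The mean of the CTCFL and CTCF lines alone, chosen after seeing the data, gave 2 of 9 genes in place of 6, and reversed Myc (0.9307) and Mycl (0.2329). Of 64 gene results past the test, 31 passed under every alternative and 32 were lost under at least 1. Of 143 not past it, 20 passed under at least 1. Leaving out libraries gave 8 to 12 pairs (I versus U), 7 to 10 (D versus U), 11 to 14 (ID versus U and ID versus I), 4 to 6 genes (mean of lines) and 4 to 5 and 8 to 9 differences between lines. FLAG pairs were 33 within 1 kb, 50 at a −log10 q of at least 5, and 60 or 61 with 1 replicate alone, in place of 57. RAD21 pairs were 14 without replicate 1 and 9 without replicate 2, in place of 2. Pairs near a crane domain edge were 24 within 80 kb in place of 13, and loci with a motif 7 within 100 bp in place of 4. With 2 or 3 libraries per group, small changes are beyond the precision of these data.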
